A study of Mus musculus with 2148 samples.

Results

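Messenger RNAs of the hormones of the pancreatic islet were measured in single thymic epithelial cells, and 6 genes were followed by their symbols among the 48437 genes of the count table. They were Ins1 and Ins2, which encode insulin, Gcg, which encodes the precursor of glucagon, Sst, which encodes somatostatin, Ppy, which encodes pancreatic polypeptide, and Iapp, which encodes islet amyloid polypeptide (amylin). All 6 had reads. Over every cell of the series Gcg was read in 18.9% of cells, Sst in 14.6%, Ppy in 8.74% and Iapp in 34.3%. Ins1 was read in 8.48% and Ins2 in 12.7%, but these shares include experimental batches 1 and 2, which are set apart below. All 75 and 66 cells of these batches held reads of both genes. Outside them Ins1 was read in 27 cells, and the shares of both insulin genes were lower.

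In the islet, each endocrine cell type makes mainly its own hormone: beta cells make insulin and amylin, alpha cells glucagon, delta cells somatostatin and PP cells pancreatic polypeptide. In the thymus, medullary thymic epithelial cells (mTECs) express many genes of other tissues and present them to developing T cells, so that T cells reactive to self are removed or become regulatory T cells. Aire, a nuclear protein of mature mTECs, is needed for the expression of many of these tissue-restricted genes, and insulin is the textbook example, since insulin is also a target of the immune system in type 1 diabetes. Cortical thymic epithelial cells (cTECs) serve the selection of thymocytes in the outer thymus.

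The cells came from C57BL/6 mice and were sorted as CD45- EpCAM+ cells, with Ly51+ for cTECs and Ly51- for mTECs, which were split by MHC class II into mTEChi (high) and mTEClo (low). Adult wild-type (WT) mice gave 620 mTEChi cells in 9 batches of 17 to 87 (4 to 6 weeks of age, male and female), 5 batches of 66 to 77 mTEClo cells (4 to 8 weeks, male) and 77 cTECs in 1 batch (6 weeks, male). Aire-deficient (Aire-KO) males of 5 weeks gave 4 batches of 81 to 87 mTEChi cells and 2 of 73 and 81 mTEClo cells. Newborn WT mice (labelled neonate, 1 day, sex not known) gave 5 batches, each with 32 to 40 mTEChi cells, 11 to 30 mTEClo cells and 22 to 37 cTECs. The RNA was read by RamDA-seq, a full-length method for total RNA in which reads, not molecules, are counted. Mice were not numbered, so cells of a group with the same age and sex labels were summed as a mouse pool: adult WT mTEChi made 4 pools, adult WT mTEClo 3 and every other group 1. The 26 experimental batches of the labels, with at most 91 cells each, were used as technical units. No adult batch held cells of more than 1 group, and no newborn batch held adult cells. Differences between genotypes, between adult sorts and between ages therefore cannot be told apart from differences between batches. Where nothing in the labels says that units came from separate mice, the p-values measure only the spread between these units. The Aire-KO allele is not described in the sources used here beyond the mice being Aire-deficient, and each Aire-KO group was a single age and sex.

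The cells held a median of 692880 reads on genes, from 203010 to 1823784, and the group medians ran from 532926.5 in Aire-KO mTEClo to 862537 in adult cTECs. The markers of thymic epithelium (10 of 10) had reads in every group. All 7 markers of dendritic cells and macrophages, 8 of thymocytes and 7 of stroma and endothelium also had reads in both adult mTEChi groups, none at 0. Summed per pool, those of dendritic cells and macrophages stood at 315.2 to 595.7 CPM (reads per 1000000 reads on genes) in adult WT mTEChi, 302.1 in Aire-KO mTEChi and 29.4 to 84.3 in adult WT mTEClo. Thymocyte markers stood at 59.2 to 186.3 CPM, 61.3 and 30.4 to 87.7 in the same groups, and stromal and endothelial markers at 25.3 to 320.9, 129.8 and 54.01 to 89.6. Their part in the results was not tested. Aire, the targeted gene, stood at 1467.3 ± 404.7 CPM (SD, n = 4 pools) in adult WT mTEChi and at 26.1 in the Aire-KO mTEChi pool, where 64.2% of cells still held an Aire read. The 9 WT batches ran from 869.8 to 1789.7 CPM and the 4 Aire-KO batches from 17.02 to 36.9, so the batches did not overlap.

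Before the shares are given, 2 batches of adult WT cells have to be set apart. In batch 1 (75 mTEChi cells) and batch 2 (66 mTEClo cells) every cell held reads of Ins1 and Ins2. In batch 1 a cell had a median of 35 Ins1 reads (12 to 56) and 79 Ins2 reads (lowest 48, highest 5.48 times the median). In batch 2 the medians were 53 Ins1 reads (37 to 70) and 97 Ins2 reads (lowest 80, highest 1.31 times the median). These batches also stood apart in other genes: 14 and 15 genes, 12 of them shared, had reads in at least 95% of their cells and in under 10% of all other cells, against 0 or 1 such gene in any other batch. The shared genes were Ins1, Ins2, Bglap, Bmp10, Cd3g, Dsc1, Edil3, Gdf2, Gm5551, Il6, Kera and Ros1. Batches 1 and 2 held 40.9% and 56.2% of all Ins1 reads and 41.6% and 38.6% of all Ins2 reads. The variance of the reads per cell was 1.24 times their mean for Ins1 and 0.660 times for Ins2 in batch 2, and 2.31 and 38.96 times in batch 1. The reads did not grow with the depth of the cell (Pearson's r = -0.498 for Ins1 and -0.353 for Ins2 over the 66 cells of batch 2, and -0.337 and -0.140 over the 75 of batch 1, as descriptions over cells that share a batch). Both insulin genes are therefore given with and without these batches. In batch 1, Gcg was found in 16 of the 75 cells, Sst in 11, Ppy in 4 and Iapp in 19, and in batch 2 Gcg was found in 2 of the 66 cells, Sst in 1, Ppy in 0 and Iapp in 11.

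**Figure D1:**
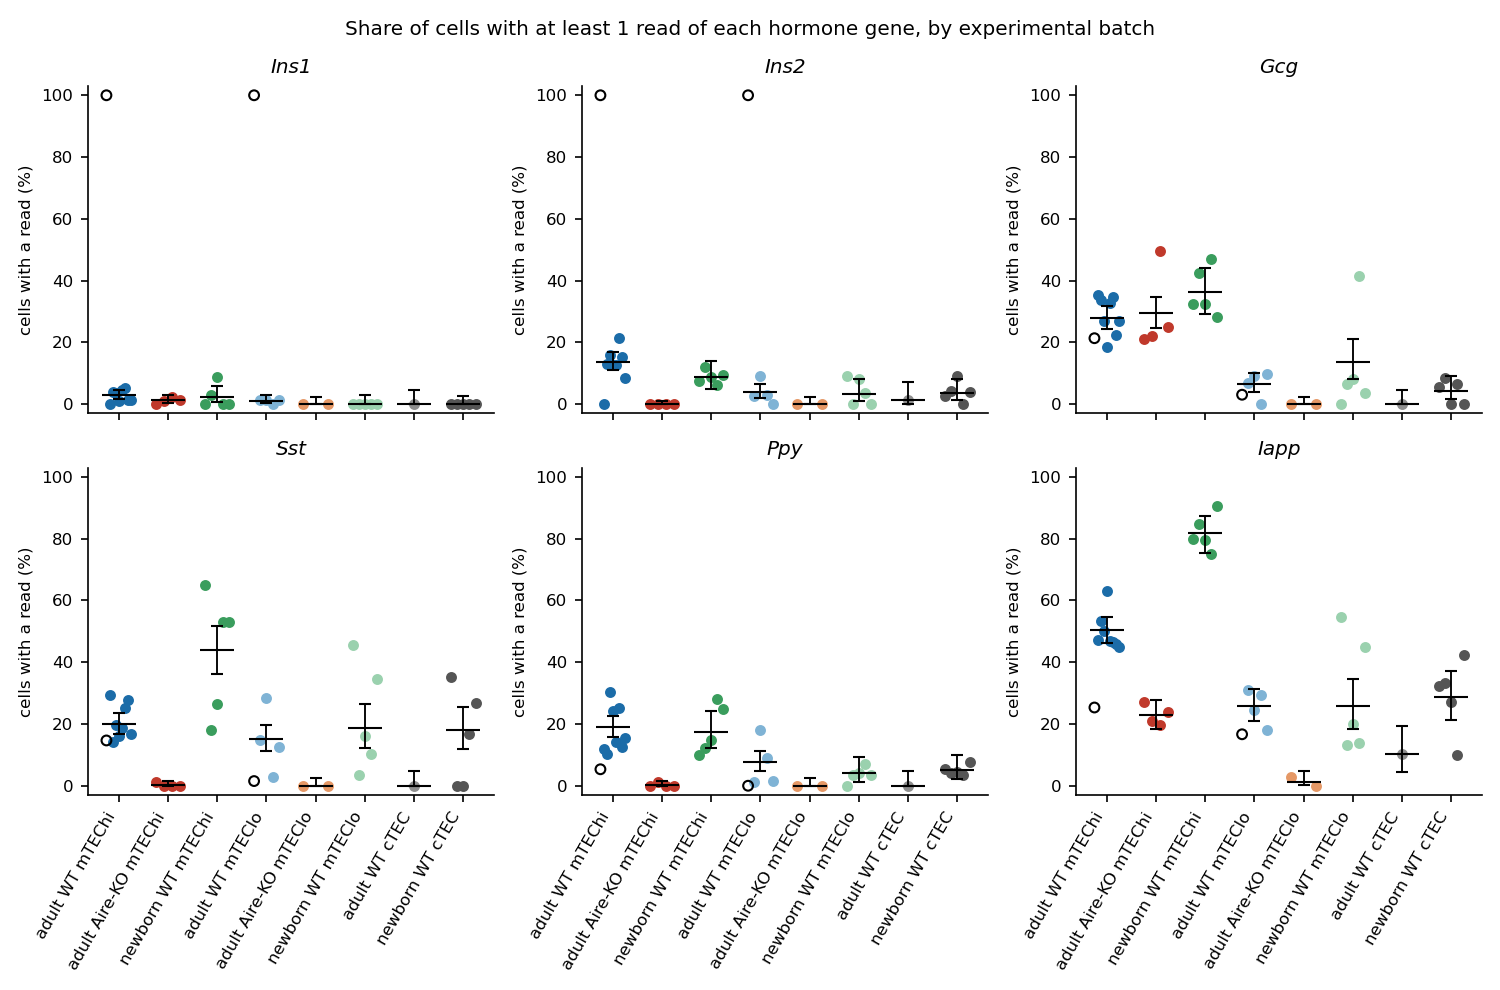
Share of cells with at least 1 read (y axis, percent) of each of the 6 hormone genes, by group (x axis). Each circle is an experimental batch, batches 1 and 2 are open, and the bar is the share of all cells of the group without batches 1 and 2 with its exact 95% interval. Batches 1 and 2 lie at 100% for Ins1 and Ins2, Sst and Ppy lie at most at 1.23% and 1.16% in Aire-KO mTEChi, and Gcg in Aire-KO mTEChi lies between 20.99% and 49.4%.

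The 6 genes lie on 6 chromosomes of the mouse genome (build mm10, GRCm38). Ins1 (ENSMUSG00000035804) is at chr19:52264297-52265476 on the plus strand with 1.06 kilobases of exon, and Ins2 (ENSMUSG00000000215) at chr7:142678656-142743381 on the minus strand with 1.31. Gcg (ENSMUSG00000000394) is at chr2:62474530-62483650, Sst (ENSMUSG00000004366) at chr16:23889573-23890958 and Ppy (ENSMUSG00000017316) at chr11:102099930-102101319, all on the minus strand, with 1.49, 0.721 and 0.50 kilobases of exon. Iapp (ENSMUSG00000041681) is at chr6:142298423-142303961 on the plus strand with 0.974. Ins1 and Ins2 are close paralogs, and how far reads could be divided between them or dropped in the counting was not tested.

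The promoters of the 4 hormone genes whose response to Aire is compared below are printed from 250 bases before to 50 after the start of the RefSeq transcript (GRCm38.p6). RefSeq held such a sequence for 5 of the 6 genes and none was at hand for Ins2. Capitals mark exact matches of TATAAA (a form of the TATA box) and TGACGTCA (the cyclic AMP response element), searched on both strands. The gene's start follows the first 250 bases.
Gcg, chr2:62483604-62483903, minus strand: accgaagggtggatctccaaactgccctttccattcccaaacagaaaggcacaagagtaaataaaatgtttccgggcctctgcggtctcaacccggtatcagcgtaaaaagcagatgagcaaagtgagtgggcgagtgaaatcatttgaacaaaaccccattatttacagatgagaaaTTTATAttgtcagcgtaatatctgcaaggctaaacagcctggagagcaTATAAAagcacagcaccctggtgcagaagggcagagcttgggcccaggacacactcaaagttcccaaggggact
Sst, chr16:23890795-23891094, minus strand: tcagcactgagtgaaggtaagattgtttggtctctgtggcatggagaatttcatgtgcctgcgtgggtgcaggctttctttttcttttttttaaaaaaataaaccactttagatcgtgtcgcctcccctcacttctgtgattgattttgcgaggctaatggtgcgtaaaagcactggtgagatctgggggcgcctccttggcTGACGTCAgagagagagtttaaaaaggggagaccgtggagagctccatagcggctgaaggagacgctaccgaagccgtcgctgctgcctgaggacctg
Ppy, chr11:102101270-102101569, minus strand: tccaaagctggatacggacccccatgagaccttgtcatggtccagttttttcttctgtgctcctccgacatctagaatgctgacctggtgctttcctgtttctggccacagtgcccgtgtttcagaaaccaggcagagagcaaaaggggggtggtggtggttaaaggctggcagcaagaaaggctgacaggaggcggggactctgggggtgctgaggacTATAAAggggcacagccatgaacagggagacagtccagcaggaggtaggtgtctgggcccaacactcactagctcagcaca
Iapp, chr6:142298175-142298474, plus strand: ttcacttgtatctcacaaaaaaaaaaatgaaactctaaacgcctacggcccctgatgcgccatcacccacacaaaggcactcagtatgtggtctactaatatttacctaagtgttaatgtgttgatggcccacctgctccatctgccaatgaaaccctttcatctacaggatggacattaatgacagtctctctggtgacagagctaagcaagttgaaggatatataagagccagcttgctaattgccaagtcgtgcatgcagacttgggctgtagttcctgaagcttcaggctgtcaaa
TATAAA begins 24 bases before the start in Gcg, with a second match on the other strand (printed as TTTATA) 72 bases before it, and 31 bases before the start in Ppy. TGACGTCA begins 48 bases before the start in Sst, and Iapp and Ins1 hold neither exact string. Variants of these strings, such as the tatataa in the printed Iapp sequence, were not searched for. TATAAA was present in 13.6% of 32851 mouse promoters of this length and TGACGTCA in 1.79%. CG occurred 13 times in the Sst promoter, 7 times in Gcg, 4 times each in Ppy and Iapp and 0 times in Ins1, against a median of 7 over all promoters. Gcg, whose share of cells in Aire-KO mTEChi lay within the WT range, and Ppy, which had 1 read there, both hold a TATAAA. The part of these motifs was not tested.

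In adult WT mTEChi, hormone reads were spread over most cells. Without batches 1 and 2, 78.7% of cells (exact 95% interval 75.04 to 82.1) held a read of at least 1 of the 6 genes, and with them 81.3% of the 620 cells did. Iapp was found in 50.5% of cells, Gcg in 27.9% (24.2 to 31.9), Sst in 20%, Ppy in 19.1%, Ins2 in 13.8% (10.98 to 16.9) and Ins1 in 2.94% (1.69 to 4.72, 16 cells). With batches 1 and 2, Ins2 was found in 24.2% of the 620 cells and Ins1 in 14.7%. These intervals cover counting error only. A share depends on depth and on the reads asked for: with at least 5 reads 44.04% of the cells outside batch 1 held a hormone gene, and with every cell thinned to 200000 reads 60.9% did.

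Over the 9 batches of adult WT mTEChi the share of Gcg ran from 18.4% through a median of 26.8% to 35.3%, and that of Iapp from 25.3% through 46.9% to 63.2%. Sst ran from 14.3% through 18.8% to 29.4% and Ppy from 5.33% through 14.1% to 30.5%. Ins2 outside batch 1 ran from 0 through 12.8% to 21.3% over 8 batches, and Ins1 from 0 through 2.53% to 5.33%. The lowest Iapp share belonged to batch 1, and the other 8 batches lay at 45.1% or above.

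Hormone reads were also found in the other WT groups. Adult WT mTEClo without batch 2 held a hormone read in 44.3% of cells, with Iapp in 75 cells, Sst in 44, Ppy in 22, Gcg in 19, Ins2 in 11 and Ins1 in 3. Newborn mTEChi held one in 90.6% of cells, with Iapp in 140 cells, Sst in 75, Gcg in 62, Ppy in 30, Ins2 in 15 and Ins1 in 4. Newborn mTEClo held one in 62 cells (50%) and newborn cTECs in 66 (47.5%). Among 77 adult cTECs, Iapp was found in 8 (10.4%) and Ins2 in 1, and the other 4 genes in none, which allows a share of up to 3.90%. Ins1 was found in none of the newborn mTEClo cells and newborn cTECs, which allows up to 2.42% and 2.16%.

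Many of the positive cells outside mTEChi held few reads. In adult WT mTEClo, 13.4% of cells had 1 to 4 Sst reads although no cell of those 4 batches had 50. In newborn mTEClo, mTEChi and cTECs, which were sorted into the same 5 batches, the Sst shares moved together: batches 16 to 20 held Sst in 26 of 40, 6 of 33, 9 of 34, 17 of 32 and 17 of 32 mTEChi cells, in 5 of 11, 1 of 30, 4 of 25, 3 of 29 and 10 of 29 mTEClo cells, and in 13 of 37, 0 of 24, 0 of 22, 5 of 30 and 7 of 26 cTECs. Batch 16 had the highest Sst share and batch 17 the lowest or joint lowest in all 3 sorts. At 5 or more reads a hormone gene was found in 8.93% of the adult mTEClo cells and in 69.6% of the newborn mTEChi cells. Free RNA in a well was not measured here, and its part in cells with few reads was not tested.

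In adult WT mTEChi cells that held a hormone gene, the number of reads ran from 1 to 600 for Gcg and higher for Sst and Iapp. Without batch 1, 42 Gcg-positive cells had 1 read, 35 had 2 to 4, 54 had 5 to 49 and 21 had 50 or more, up to 600, with a median of 4. For Sst the split was 58, 30, 5 and 16 cells, with a median of 1 and a highest cell of 1027.6 CPM, so cells with 5 to 49 reads were fewer than cells with more. Ppy split into 41, 18, 22 and 23 cells, with a median of 2 and a highest cell of 643.3 CPM. Iapp split into 74, 65, 95 and 41 cells, with a median of 4 and a highest cell of 1780.4 CPM. Ins2 split into 33, 9, 17 and 16 cells, with a median of 2 and a highest cell of 350.8 CPM. Ins1 split into 6, 4, 5 and 1 cells, up to 53.

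A few cells thus held much of each group's total. In adult WT mTEChi the 5 cells with the most reads held 44.5% of all Gcg reads, 46.99% of Sst, 38.7% of Ppy, 26.6% of Iapp and 45.9% of Ins2. In adult mTEClo a single cell at 301.5 CPM held 85.9% of the Gcg reads, and in newborn mTEClo a cell at 1069.02 CPM held 69.2%. A newborn mTEClo cell at 2419.5 CPM of Iapp held 74.8% of that group's Iapp reads, and an adult cTEC at 572.2 CPM held 80.9%. These 4 totals thus rest mainly on 1 cell each.

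Between genes, levels were compared as CPM per kilobase of exon. The highest single adult WT mTEChi cell had 1827.9 for Iapp, 1425.2 for Sst, 1286.7 for Ppy, 731.7 for Gcg, 267.4 for Ins2 and 55.6 for Ins1 on this scale. Pooled over the cells outside batch 1 the same order held except for Sst and Ppy, with 28.6 CPM per kilobase for Iapp, 19.8 for Ppy, 16.8 for Sst, 8.80 for Gcg, 4.71 for Ins2 and 0.346 for Ins1.

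**Figure D2:**
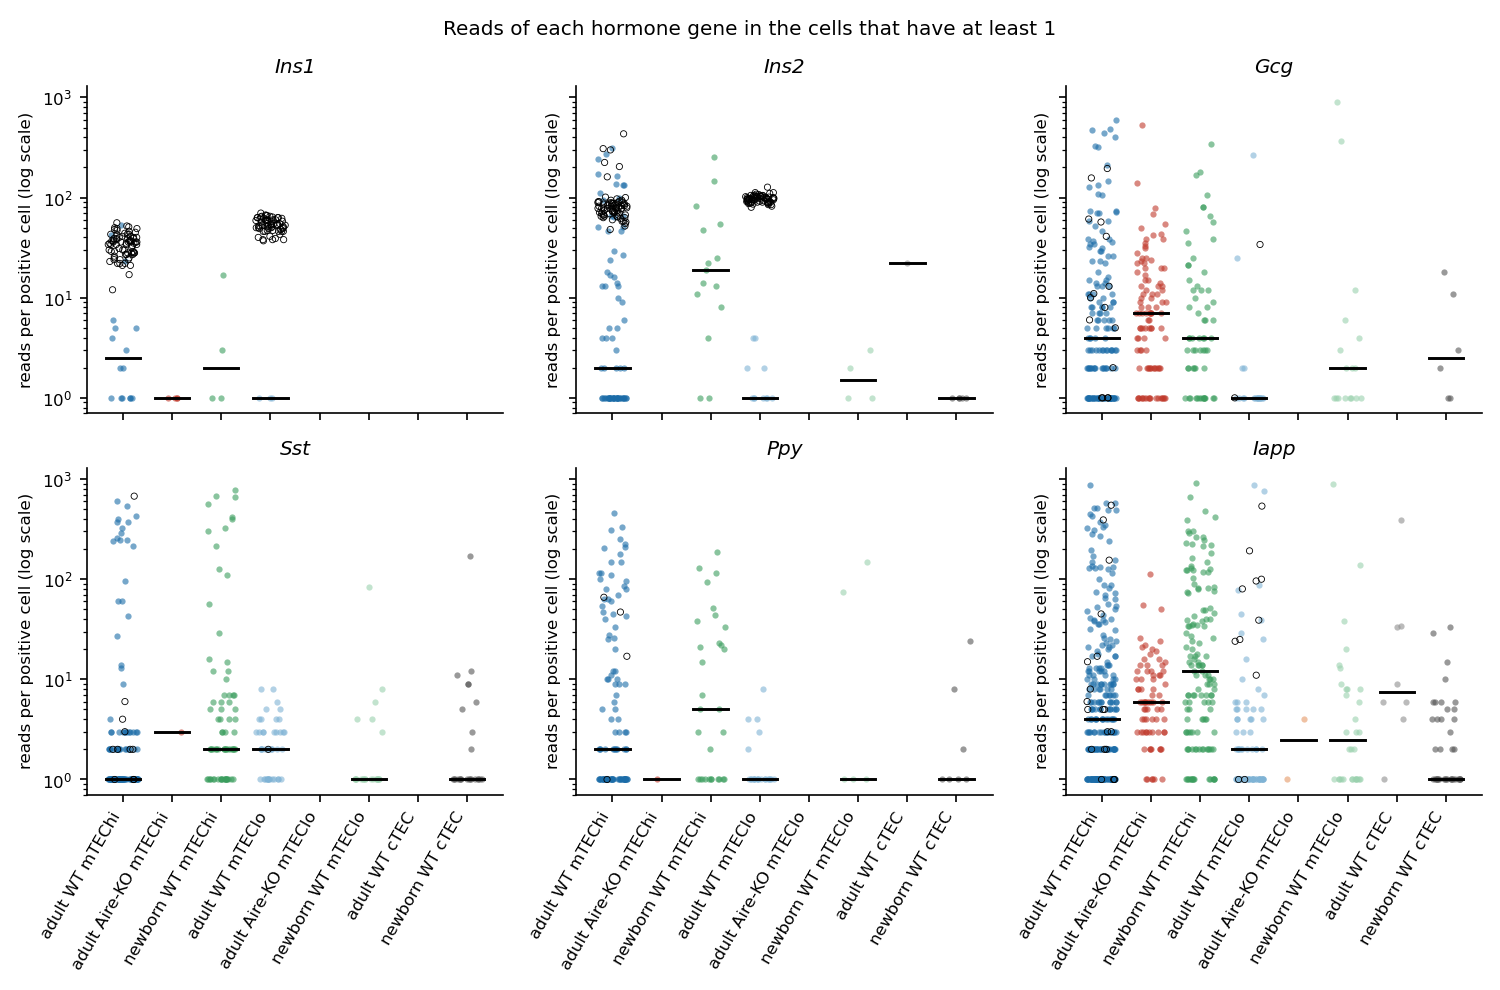
Reads per positive cell (log10 axis) of each hormone gene by group, without batches 1 and 2 in the medians. Each point is a cell with at least 1 read, open points are cells of batches 1 and 2 and the bar is the median. The 75 and 66 cells of batches 1 and 2 all hold reads of Ins1 and Ins2, from 12 and 48 reads up in batch 1 and from 37 and 80 up in batch 2, while the other positive cells of adult WT mTEChi run from 1 read up to 53 for Ins1 and 600 for Gcg.

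The 2 insulin genes were seldom read together outside batches 1 and 2. Among the 27 cells with an Ins1 read, 9 also held Ins2 and 18 did not, and the shares within batches alone would give 2.96 cells with both. The 11 cells with 100 or more Ins2 reads held 0 to 6 Ins1 reads, and 6 of them held any. The cell with the most Ins1 reads, 53, held no Ins2 read. Of 7 cells with 5 or more Ins1 reads, 2 held Ins2. The cells highest in Ins1 and in Ins2 were thus different cells, in contrast to batches 1 and 2, where each of the 75 and 66 cells held both.

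Outside batches 1 and 2, Ins1 and Ins2 met in 3.04 times the number of cells that the shares of each within batches give. For the other pairs of islet hormones this ratio ran from 0.845 to 1.26 at 1 or more reads. Over every group without batches 1 and 2, Gcg and Iapp met in 1.17 times the 156.9 cells that the shares within batches give. Gcg and Sst met in 78 cells, 1.22 times the number from the shares, Sst and Iapp in 1.07 times the 142.9 cells, and Gcg and Ppy in 41 against 42.5. With at least 5 reads of both genes, Gcg and Iapp met in 66 cells against 43.6, Sst and Iapp in 31 against 22.9, and Gcg and Ppy in 14 against 8.56. Ins2 met Iapp, with which it is made in beta cells, in 61 cells against 55.9 and in 15 against 15.2 at 5 or more reads. Ins2 met Sst in 22 cells against 25.3. From 1 to 5 reads the ratio to the number from the shares went up in 10 of the 15 pairs and down in 5, among them Ins2 with Iapp and Sst with Ppy (1.14 to 1.08).

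The count of hormone genes per cell was also set beside the number from the shares within batches. In adult WT mTEChi, 21.3% of cells held none of the 6 genes, 37.2% held 1, 30.1% held 2, 9.17% held 3, 1.83% held 4 and 0.367% held 5, where the shares within batches give 19.3%, 40.3%, 29.04%, 9.63%, 1.56% and 0.113%. No cell in any group held all 6. In Aire-KO mTEChi 55.6% of cells held none, 34.6% held 1 and 9.76% held 2, against 53.4%, 39.2% and 7.31%. In newborn mTEChi 16, 48, 58, 35, 13 and 1 cells held 0 to 5 of them. The shares within batches give 8.15, 50.5, 69.5, 35.4, 6.95 and 0.482 cells there, so cells with 0 and with 4 were more than these. Cells share their pool and batch, so these counts are descriptions and carry no test.

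**Figure D3:**
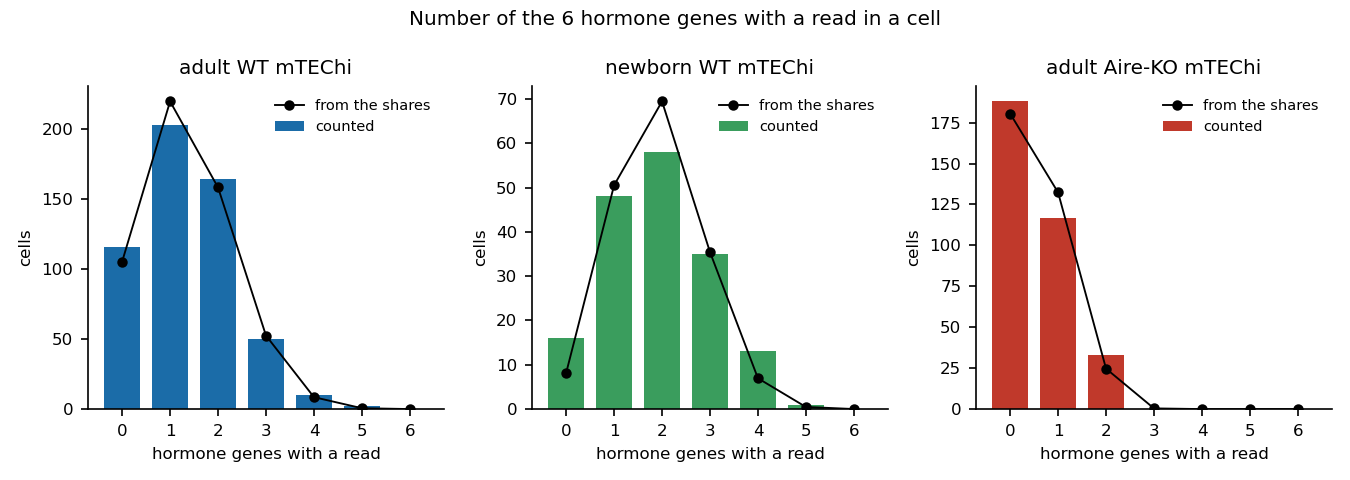
Number of cells (y axis) by the number of islet hormone genes with a read (x axis, 0 to 6) in adult WT, newborn WT and adult Aire-KO mTEChi, without batches 1 and 2. Bars are the cells counted and points the number given by the shares within batches. In adult WT mTEChi 50 cells held 3, 10 held 4 and 2 held 5, and in Aire-KO mTEChi no cell held more than 2.

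In Aire-KO mTEChi, 4 of the hormone genes had at most 4 reads in all, while Gcg was read in a share of cells within the WT range. Ins2 had no read in any Aire-KO mTEChi cell, Ppy had 1 read, Sst had 3 reads in 1 cell and Ins1 had 4 reads in 4 cells. Iapp remained in 77 cells (22.8%) and Gcg in 100 (29.6%, 24.8 to 34.8), against 50.5% and 27.9% in adult WT mTEChi. In all, 44.4% of Aire-KO mTEChi cells held a hormone gene, and 34.9% did after thinning to 200000 reads, against 78.7% and 60.9% in WT.

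For Sst, which acts in the islet to restrain insulin and glucagon release, the 4 WT pools stood at 13.7, 49.7, 1.58 and 7.15 CPM and the Aire-KO pool at 0.0102. The 49.7 CPM belonged to the pool of 12 cells, where nearly all Sst reads lay in a single cell. The Aire-KO pool lay below every WT pool, and its pooled level was 1161.3-fold lower (95% counting interval 397.2 to 5633). For Ppy, a hormone that slows exocrine secretion, the WT pools stood at 8.45, 0.125, 3.52 and 20.3 CPM and the Aire-KO pool at 0.00341, a ratio of 2576 (462.04 to 101760) that rests on 1 read. Ins2 was at least 1935.5-fold lower, and at least 603.5-fold lower without batch 1, with the floor set at 3 reads over the Aire-KO group. The WT pools of Ins2 stood at 24.4, 0, 8.23 and 6.53 CPM, so the pool of 12 cells also had none. A count of 0 over all 4 batches allows a share of up to 0.888% of cells. Ins1, with 4 reads, was 26.9-fold lower than in the WT cells without batch 1.

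Iapp, which beta cells secrete with insulin, was read at a lower level. Its 4 WT pools stood at 25.6, 30.5, 35.8 and 19.4 CPM and the Aire-KO pool at 2.67, 9.95-fold lower by pooled reads. By batch, Aire-KO mTEChi held Iapp in 27.2%, 20.9%, 19.5% and 23.8% of cells, below the 8 WT batches other than batch 1 and overlapping only with batch 1 at 25.3%. Among Iapp-positive Aire-KO cells, 6 had 1 read, 23 had 2 to 4, 45 had 5 to 49 and 3 had 50 or more, with a median of 6 and a highest cell of 102.9 CPM. Cells with 50 or more Iapp reads thus numbered 3 here and 41 in WT.

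Gcg stood at 10.8, 14.0, 26.1 and 5.4 CPM in the WT pools and at 6.31 in the Aire-KO pool, within the WT range and 1.98-fold lower by pooled reads. The 4 Aire-KO batches held Gcg in 17 of 81, 19 of 86, 43 of 87 and 21 of 84 cells (20.99%, 22.1%, 49.4% and 25%). Batch 13 lay above all 9 WT batches and the other 3 lay inside their range. Among the 100 positive cells, 17 had 1 read, 20 had 2 to 4, 57 had 5 to 49 and 6 had 50 or more, with a median of 7 reads. A single cell of batch 13 at 517.4 CPM held 28.95% of all Gcg reads of the group.

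By mouse pools, none of these differences passed the test. The edgeR quasi-likelihood test across all 39971 genes, with 5 residual degrees of freedom, called 0 of the 6 genes between Aire-KO and WT mTEChi, where a gene counted as called when it changed 2-fold or more and its adjusted p fell below 0.05. It called 0 of all genes (background 0%), Aire with them (log2 fold change -5.69 ± 0.57 SE, adjusted p = 0.239). At an unadjusted p under 0.05 it held 3 of the 6, Sst, Ppy and Iapp, and 4.37% of all genes. The fitted log2 fold changes were -10.50 ± 3.06 for Sst, -10.72 ± 3.70 for Ppy, -3.26 ± 0.61 for Iapp (all with adjusted p = 0.925 by edgeR) and -1.03 ± 1.14 for Gcg (adjusted p = 0.974). The median over the 6 genes was -8.80, against -0.16 over all genes. This fit includes batch 1 with its Ins1 and Ins2 reads, and the pool fit without batches 1 and 2 gave a median of -7.38 over the 6. Fitted values of genes with no or few reads in a group depend on the prior count and are no bounds.

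Another tool and other units gave calls. The Aire-KO arm is 1 pool, so tests on pools, by edgeR and by DESeq2, take its spread from the pools of the other groups. DESeq2 on the same pools called 4 of the 6 genes lower, Ins2, Sst, Ppy and Iapp, on a background of 2.29% of genes called (2.13% lower). With the experimental batches as units, which are technical, edgeR called the same 4 lower on a background of 5.67% (4.44% lower). Without batches 1 and 2, where 5.96% of genes were called (4.60% lower), these 4 were called again, with log2 fold changes of -10.06 ± 1.39 for Sst (edgeR adjusted p = 0.000193), -10.30 ± 1.83 for Ppy (0.00154), -10.86 ± 1.79 for Ins2 (0.00116) and -3.27 ± 0.90 for Iapp (0.0269). Gcg was not called, at -1.02 ± 1.36 (edgeR adjusted p = 0.679), nor Ins1 at -4.21 ± 1.61 (0.101). The median over the 6 was -7.13, or -6.72 with Ins2 at its bound, against -0.07 over all genes.

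The shares of cells by batch were also compared by a two-sided exact permutation test over 4 Aire-KO and 9 WT batches, with Benjamini-Hochberg adjustment over 36 tests. No batch held both genotypes, so genotype cannot be told apart from batch here. Sst (mean of 0.309% against 20.3%) and Ppy (0.291% against 16.6%) did not overlap, with p = 0.0028, the smallest these batches allow, and adjusted p = 0.0216. Iapp fell from a mean of 47.03% to 22.9% in the same exact permutation test (p = 0.0056, adjusted p = 0.0336). Without batch 1, Iapp did not overlap either, and Sst, Ppy and Iapp each had the smallest exact p of 0.0040 (adjusted p = 0.0242). Ins2 had p = 0.0140 in the exact permutation test (adjusted p = 0.0719), and 0.0202 (0.104) without batch 1, where a WT batch of 17 cells also had no positive cell. The Gcg share, with means of 29.4% and 28.01%, had p = 0.727 (exact permutation test, adjusted p = 0.793). Over mouse pools, 1 against 4 cannot give an exact p below 0.40.

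**Figure D4:**
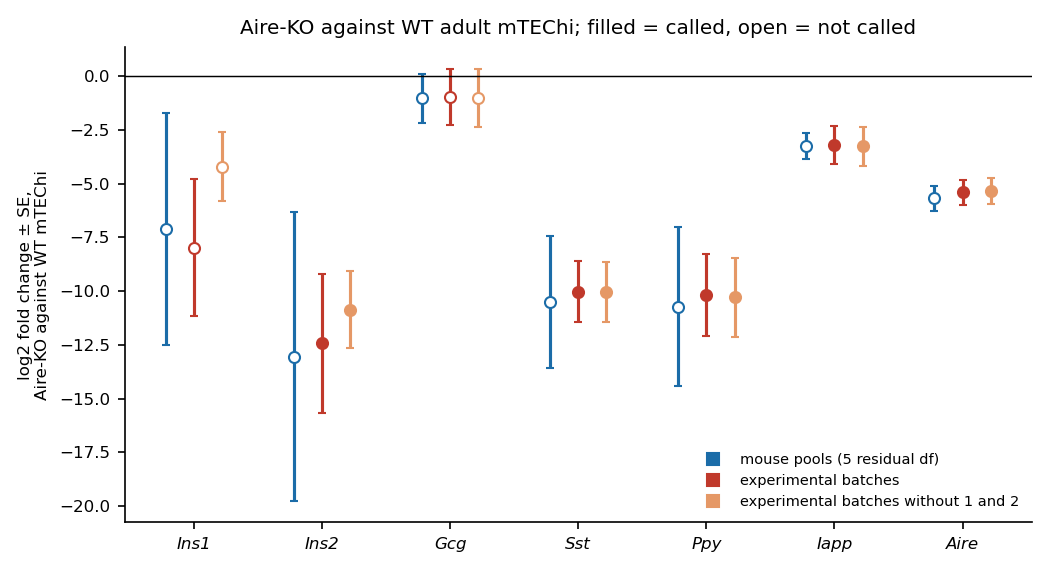
Log2 fold change of Aire-KO against WT adult mTEChi (y axis) for the 6 hormone genes and Aire, with mouse pools, experimental batches and batches without 1 and 2 as units of the edgeR fit. Filled points changed 2-fold or more with an adjusted p below 0.05, and bars are standard errors. Gcg lies at -1.03, -0.96 and -1.02 and is open in all 3 fits, while Sst lies at -10.50, -10.02 and -10.06 and is filled with batches as units.

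The Gcg-positive cells of Aire-KO mTEChi held reads of Aire more often than other cells of the same batches. The share with an Aire read was 88.2% in Gcg-positive and 67.2% in Gcg-negative cells of batch 7, 84.2% and 52.2% in batch 8, 88.4% and 65.9% in batch 13, and 95.2% and 33.3% in batch 14. It was thus higher in positive cells in 4 of 4 batches, while Aire CPM pooled over the cells was 23.5 in positive and 27.3 in negative cells. The median depth was 861585 reads in positive and 806062 in negative cells. Over the 4 batches together, where batch 13 gives 43 of the Gcg-positive cells, Calca, which encodes calcitonin and CGRP, was found in 66% against 40.8% of cells and Cd4, a thymocyte marker, in 65% against 38.2%, both higher in 4 of 4 batches. Slc2a2, the glucose transporter of beta cells, was found in 46% against 20.6%, higher in 3 of 4 batches and lower in batch 7 (11.8% against 20.3%). Calca, Cd4 and Slc2a2 were picked after their values were seen, from lists of 13, 8 and 9 genes. They do not stand for those lists. Of all genes with a read, 47.7% were found in a larger share of the Gcg-positive cells. Gcg and Iapp met in 31 Aire-KO mTEChi cells, 1.41 times the number from the shares within batches, and in 13 against 8.67 with at least 5 reads. These are descriptions over cells of 1 pool, with no test.

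In Aire-KO mTEClo, the only hormone reads were 5 of Iapp in 2 cells (1.30%). Gcg, Sst, Ppy, Ins1 and Ins2 were at 0, which allows up to 1.95% of cells. In adult WT mTEClo the 3 pools stood at 2.50, 0.500 and 0.746 CPM for Gcg, at 10.3, 15.8 and 23.6 for Iapp, at 0.747, 0.484 and 0.0426 for Sst and at 0.267, 0.133 and 0 for Ppy. By pooled reads Iapp was 268.1-fold lower in Aire-KO mTEClo, Gcg at least 48.2-fold, Sst at least 16.03-fold and Ppy at least 5.30-fold lower. The edgeR test on pools called 0 of 6 genes, on a background of 0%, with 3 of the 6 at an unadjusted p under 0.05 among 3.55% of all genes, and Iapp at -8.17 ± 0.85 (adjusted p = 0.113). DESeq2 called Ins2, Gcg and Iapp (background 0.792%). The WT level of Ins2 in that fit comes from batch 2, and without batches 1 and 2 the edgeR pool test put Ins2 at -6.65 ± 3.74 (adjusted p = 1). With batches as units edgeR called Iapp alone (adjusted p = 0.0413, background 0.265%), a call lost without batch 2 (adjusted p = 0.0675). Over batches, 2 against 5 cannot give an exact p below 0.0952.

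Gcg and Iapp thus had reads in Aire-KO mTEChi and none or few in Aire-KO mTEClo. The WT mTEClo level of Iapp, which enters the difference below, rests in large part on 1 cell per pool. The difference of the Aire-KO effects between the sorts was 4.92 ± 0.82 on the log2 scale for Iapp (unadjusted p = 0.00027, edgeR adjusted p = 1), and 0 of the 6 genes were called, as were 0 of all genes (background 0%, 3.44% at an unadjusted p under 0.05). DESeq2 called the difference for Iapp, at 5.02 ± 1.03 (adjusted p = 0.000799), where it called 0.584% of genes. The limma fit on the mean log2 CPM of cells turned its direction, at -0.31.

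Between the 2 sorts of adult WT mTECs, Gcg and Sst were higher in mTEChi. Gcg stood at 10.8, 14.0, 26.1 and 5.4 CPM in mTEChi and at 2.50, 0.500 and 0.746 in mTEClo, with no overlap, a log2 fold change of 3.21 ± 0.82 and an adjusted p of 0.0403 by edgeR. Sst, at 1.58 to 49.7 CPM in mTEChi and 0.0426 to 0.747 in mTEClo, also did not overlap, at 5.11 ± 1.39 (edgeR adjusted p = 0.0473). These 2 of 6 genes passed where 11.7% of all genes did (7.54% higher and 4.13% lower). Ppy was at 5.61 ± 1.71 (adjusted p = 0.0633) and Iapp at 0.58 ± 0.34 (adjusted p = 0.248), both short of the threshold, and the median shift of all genes was 0.30. Without batches 1 and 2 the pool test called 0 of the 6, with adjusted p = 0.107 for Gcg and 0.103 for Sst by edgeR. Leaving out 1 pool at a time, it called 0 of the 6 without pool 1 or 4 of mTEChi or pool 2 or 3 of mTEClo, and 1 without pool 3 of mTEChi or pool 1 of mTEClo.

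Ins1 and Ins2 turned their direction with batches 1 and 2. With all cells the log2 fold change of mTEChi against mTEClo was -3.65 ± 2.40 for Ins1 in the edgeR pool test, and 4.10 ± 1.61 (adjusted p = 0.161) without these batches. For Ins2 it was -2.34 ± 2.09 where the mTEClo pool of batch 2 stood at 136.7 CPM against 0.124 and 0.0834 in the others. Without batches 1 and 2 it was 5.47 ± 1.83 by pools (edgeR adjusted p = 0.122). With batches as units and without batches 1 and 2 it was 5.63 ± 1.32 (edgeR adjusted p = 0.00216), with 32.4% of genes called, and the pooled level was 56.1-fold higher in mTEChi. Ppy at 5.22 ± 1.36 (adjusted p = 0.00408) and Sst at 4.43 ± 0.99 (0.00119) were called in that edgeR fit and Gcg at 2.61 was not (0.159).

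By shares of cells, Gcg was higher in each of the 9 mTEChi batches than in each of the 5 mTEClo batches (means of 28.01% and 5.72%, exact permutation p = 0.0010, the smallest possible, adjusted p = 0.0180). Iapp had means of 47.03% and 23.98% (exact permutation p = 0.0030, adjusted p = 0.0216). Sst, with means of 20.3% and 12.1%, had an exact permutation p of 0.0779 (adjusted p = 0.175). Iapp thus passed the test on the share of cells and missed that on the pool level. Among the mTEClo cells outside batch 2, a single cell at 1258.2 CPM held 41.1% of the Iapp reads, and its part was not tested. Over 4 and 3 pools the exact test reached its smallest p, 0.0571, for Gcg, Sst and Iapp (adjusted p = 0.343).

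In newborn mTEChi, Iapp was found in more cells than in adult mTEChi. The 5 newborn batches held it in 80%, 84.8%, 79.4%, 75% and 90.6% of cells, all above the highest adult batch at 63.2% (exact permutation p = 0.0010, the smallest possible, adjusted p = 0.0180). Its pooled level was 92.2 CPM against 19.4 to 35.8 in the adult pools, and positive cells had a median of 12 reads and a highest cell of 1414.3 CPM, against a median of 4 in adults. After thinning to 200000 reads 84.8% of newborn mTEChi cells held a hormone gene, against 60.9% of adult cells. In the edgeR pool test Iapp was at 1.76 ± 0.44 on the log2 scale (unadjusted p = 0.00335, adjusted p = 1), and 0 of 6 genes and 0 of all genes (background 0%) were called. There it was the only hormone gene at an unadjusted p under 0.05, among 2.01% of all genes. With batches as units it was at 1.92 ± 0.65 (edgeR adjusted p = 0.0945), where 1.79% of genes were called.

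Sst was found in 65%, 18.2%, 26.5%, 53.1% and 53.1% of newborn mTEChi cells by batch, overlapping the adult range of 14.3% to 29.4% (exact permutation p = 0.0190, adjusted p = 0.0854). Its pooled level was 50.2 CPM, against 13.7, 49.7, 1.58 and 7.15 in the adult pools, and was 4.22-fold higher by pooled reads. The 49.7 CPM came from the adult pool of 12 cells, where nearly all Sst reads lay in a single cell. Gcg, at 15.3 CPM and in 28.1% to 46.9% of cells, overlapped the adult values of 5.4 to 26.1 CPM and 18.4% to 35.3% (exact permutation p = 0.0599, adjusted p = 0.150). Ppy, at 8.52 CPM and in 10.0% to 28.1% of cells, lay within the adult range in both.

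The newborn sorts shared their batches, so mTEChi and mTEClo could be compared within each. Gcg, Sst, Ppy and Iapp were each found in a larger share of mTEChi than of mTEClo cells in 5 of 5 batches (exact sign-flip permutation p = 0.0625, the smallest possible, adjusted p = 0.150). For Iapp the means were 81.98% and 29.3%, for Sst 43.2% and 21.9%, for Gcg 36.5% and 11.9% and for Ppy 18.0% and 3.54%. Gcg in newborn mTEClo rested on batch 19, with 12 of 29 cells (41.4%) against 0 to 8.00% in the other batches. Against adult mTEClo, the edgeR pool test called 0 of the 6 genes (background 0%), with Gcg at 3.55 ± 1.00 (adjusted p = 0.303) the only one at an unadjusted p under 0.05, among 9.93% of all genes. DESeq2 called Gcg at 3.59 (adjusted p = 0.0302, background 6.33%). With batches as units edgeR called Ppy higher, at 3.50 ± 1.23 (adjusted p = 0.0398), and Ins1 and Ins2 lower (background 16%), and without batches 1 and 2 it called 0 of the 6 (background 14.2%), with Ppy at an adjusted p of 0.0759.

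Ordered by the share of cells, Iapp ran from newborn mTEChi (batches at 75% to 90.6%) through adult WT mTEChi (45.1% to 63.2% without batch 1) to adult WT mTEClo (18.1% to 31.1% without batch 2) and Aire-KO mTEChi (19.5% to 27.2%), which overlapped each other. Newborn mTEClo (13.3% to 54.5%) overlapped all of these but the highest, newborn cTECs (10.0% to 42.3%) overlapped adult mTEClo and Aire-KO mTEChi, adult cTECs stood at 10.4% in 1 batch and Aire-KO mTEClo at 0 and 2.74% in 2. For Gcg, newborn, Aire-KO and adult WT mTEChi overlapped one another and all lay above adult WT mTEClo (0 to 9.72%) and newborn cTECs (0 to 8.33%), while newborn mTEClo (0 to 41.4%) overlapped all of them.

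Every adult WT mTEChi cell held an Aire read, so hormone-positive and hormone-negative cells could be compared only by level. Aire CPM was 1179.1 in cells with any of the 6 hormone genes and 772.6 in cells with none in pool 1, 1808.9 and 1898.7 in pool 2, 1190.5 and 887.1 in pool 3 and 1874.5 and 1367.5 in pool 4. It was thus higher in positive cells in 3 of 4 pools, with ratios of 1.53, 0.95, 1.34 and 1.37. All 75 cells of batch 1, part of pool 1, counted as positive through Ins1 and Ins2, also at 5 or more reads. Batch 1 thus entered only the positive side of the pool 1 ratio for any of the 6 genes. For Gcg the ratios were 1.25, 1.30, 1.04 and 1.26 and for Iapp 1.09, 1.31, 1.09 and 1.26, above 1 in all 4 pools for both. For Sst they were 0.97, 1.64, 0.94 and 0.87, and for Ppy 1.04, 0.63, 1.03 and 0.77. In newborn mTEChi the ratio for any of the 6 was 1.02. Several of these directions turned with the cells counted. Without batch 1 the Sst ratio of pool 1 was 1.08. With 5 or more reads asked for, the Gcg ratios stayed above 1 in all 4 pools (1.06 to 2.06), those of Iapp were 1.03, 1.47, 1.01 and 0.90, and those of Sst were 1.23, 2.29, 1.68 and 1.18 over 18, 1, 1 and 3 positive cells. For any of the 6 genes they were then 1.32, 1.47, 1.19 and 0.98, and 0.90 in newborns.

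The genes whose pattern over every cell of the series was most like that of each hormone were named by Pearson's r of log2(CPM + 1) among protein-coding genes, as a description over cells that share libraries and depth. Ppy stood closest to Pyy (r = 0.73), which encodes the related gut hormone peptide YY, also read in 61.8% of the Ppy-positive cells, followed by Tac2 (0.24) and Ccl5 (0.24). Iapp stood closest to Slco1a5 (0.49, in 66.3% of its cells), an organic anion transporter, followed by Hopx (0.40) and Bcl2a1d (0.37). Gcg stood closest to Csn2 (0.34), a milk casein read in 97.6% of its cells, Vmo1 (0.33) and Calcb (0.33). Sst stood closest to Nts (0.25, in 46.4% of its cells), which encodes neurotensin, Ccl5 (0.24) and Adh6a (0.22). For Ins1 they were Il6 (0.94), Gdf2 (0.90) and Nkx6-1 (0.88), and for Ins2 they were Ins1 (0.87), Il6 (0.85) and Gdf2 (0.80), all genes read in 97.2% to 100% of the cells of batches 1 and 2. Without these batches Ins2 stood closest to Igf2 (0.31, in 27.9% of its cells), Gkn3 (0.29) and Tac2 (0.23), and Ins1 to Zfp488 (0.27), Nkx2-2 (0.25) and Spink7 (0.25).

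Pyy, Slco1a5 and Igf2 are also chromosomal neighbours of Ppy, Iapp and Ins2. Of 37 protein-coding genes within 200 kb of a hormone gene, 31 were found in a larger share of the hormone-positive than of the hormone-negative adult WT mTEChi cells (5 of 5 for Ins2, 5 of 5 for Gcg, 3 of 3 for Sst, 13 of 16 for Ppy and 5 of 8 for Iapp), where 48.4% to 53.1% of all genes were. Ins1 had no such neighbour. No least difference was asked for, and some of the 31 were near ties. Golt1b was at 98.55% against 98.52%, Ldhb at 99.64% against 99.63%, Pyroxd1 at 97.45% against 97.41% and Hdac5 at 75% against 74.8%. Rtp2 and Asb16 were found in 2 positive cells each. Pyy, 5357 bases from Ppy, was found in 60.6% of Ppy-positive and 17.9% of Ppy-negative cells, and 63 cells held both, 2.10 times the number from the shares within batches. With at least 5 reads of both, 28 cells stood against 3.82, and in newborn mTEChi 21 cells held both against 10.6. Igf2, 11840 bases from Ins2 and the gene of an insulin-like growth factor, was found in 30.7% of Ins2-positive and 8.94% of Ins2-negative cells, with 23 cells holding both against 9.05. Th, which encodes tyrosine hydroxylase and lies 149371 bases from Ins2, was found in 25.3% and 14.0%.

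Slco1a5 overlaps the span of Iapp on the opposite strand and shares 0 exonic bases with it. It was found in 68% of Iapp-positive and 40% of Iapp-negative cells, and 1.25 times the 149.7 cells given by the shares within batches held both. Counting did not use strand, so reads of Iapp and of unspliced Slco1a5 RNA cannot be told apart where they overlap. Near Gcg, Fap (17293 bases away) was found in 48.03% against 37.7% and Dpp4 (62299 bases), whose enzyme degrades the glucagon-like peptides made from Gcg, in 44.1% against 33.1%. Near Ppy, Mpp2 (11415 bases) was found in 29.8% against 14.7%, while Mpp3 went the other way, at 23.1% against 27.9%. Near Iapp, Gys2 and Spx were found in smaller shares of positive cells, 18.5% against 21.1% and 11.6% against 15.6%.

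**Figure D5:**
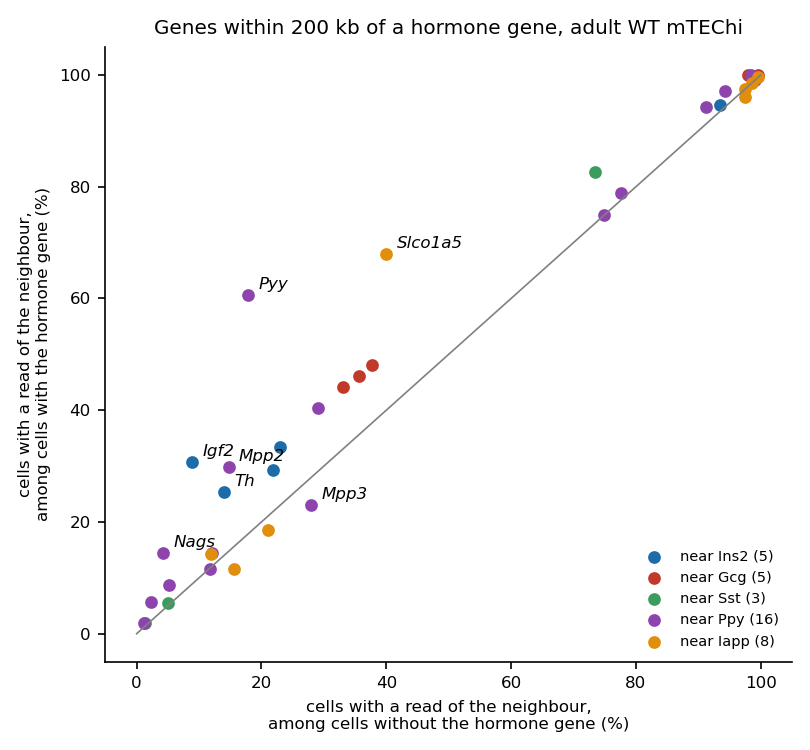
Share of cells with a read of each protein-coding neighbour within 200 kb (percent) in hormone-positive (y axis) against hormone-negative (x axis) adult WT mTEChi cells without batch 1, coloured by hormone gene. Points above the diagonal are more frequent in positive cells, as 31 of the 37 are, some of them by a very small margin, with Pyy at 60.6% against 17.9%.

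The neighbours did not all follow the loss in Aire-KO mTEChi. With batches as units edgeR called 8 of the 37 lower and 0 higher, with Pyy at -12.31 ± 2.09 (adjusted p = 0.00117) and Igf2 at -6.43 ± 1.20 (0.00193), beside 4.44% of all genes called lower. The others were Th, Sost, Cd300lg, Mpp2, Gys2 and Ldhb. Slco1a5 was at -0.52 ± 0.78 (adjusted p = 0.723) and was read in 40.5% of Aire-KO mTEChi cells, and 59 of them held it with Iapp against 31.5 from the shares within batches. The edgeR pool test called 0 of the 37.

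Other genes of hormone biology were described from lists. Of 13 other gut and neural hormones, 7 were lower and 0 higher in Aire-KO mTEChi with batches as units and without batches 1 and 2, with Nts at -13.57 ± 1.58 (edgeR adjusted p = 3.44e-05), Pyy at -12.35, Vip at -9.71 ± 1.65 (0.0011) and Cck, the gene of cholecystokinin, at -6.53 ± 0.99 (0.000376). Their median was -4.25 against -0.07 over all genes, where 4.60% of all genes were called lower. Of 16 regulators of islet development 2 were lower, Pdx1 at -9.02 ± 2.23 (edgeR adjusted p = 0.0215) and Neurod1 at -6.54 ± 2.08 (0.049998, just under the threshold). Of 15 hormone receptors 3 were lower, Glp1r at -8.15, Calcr at -5.53 and Ramp1 at -3.03, of 9 genes of glucose sensing only Trpm5 at -4.42, and of 14 genes of granules and prohormone processing 0 in either direction. Of 11 exocrine pancreas genes 2 were lower, Ctrb1 at -8.61 and Cel at -4.07. Among the other lists, Aire and Enpep (2 of 10 epithelial markers), Adgre1 (1 of 7 dendritic cell and macrophage markers, -3.81) and Lck (1 of 8 thymocyte markers, -1.45) were called lower and 0 of 7 stromal markers were called. The edgeR pool test called 0 genes of every list.

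Between adult WT mTEChi and mTEClo the edgeR pool test called 6 of the 13 gut and neural hormones higher, with Npy at 8.26, Nts at 7.50, Vip at 6.81 and Pyy at 5.82, and a median of 4.56 (4.10 with genes at 0 at their bound) against 0.30 over all genes, with 7.54% of genes called higher. Regulators of islet development gave 2 higher, Pax4 at 10.45 and Insm1 at 1.75, and 1 lower, Isl1 at -1.80. Among genes of granules Vgf was higher at 4.04 and Ptprn2 lower at -2.60. Among receptors Calcr was higher at 8.84 and Sstr2, a receptor for somatostatin, lower at -3.40, and Trpm5 was lower at -4.84. Markers of other cells moved with this contrast too, with 4 of 7 dendritic cell and macrophage markers, 2 of 8 thymocyte markers and 1 of 7 stromal markers higher, and their part was not tested.

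Other genes of hormone and islet biology were also compared between hormone-positive and hormone-negative cells. In the 78.7% of adult WT mTEChi cells with any of the 6 genes, 12 of 13 gut and neural hormones were found in a larger share than in the 21.3% with none, where 59.3% of all genes were and the median depths were 739915 and 757556 reads. The counts were 9 of 14 for granule genes, 8 of 16 for regulators of islet development, 7 of 9 for glucose sensing, 8 of 15 for hormone receptors and 7 of 11 for exocrine genes. Markers of dendritic cells and macrophages stood higher in 7 of 7, of stroma in 6 of 7 and of thymocytes in 4 of 8. In Ins2-positive cells 13 of 13 gut and neural hormones but 3 of 16 regulators stood higher, where 48.4% of all genes did, at median depths of 739915 reads in positive and 753285 in negative cells.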

How the data were processed

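RamDA-seq libraries of single mouse thymic epithelial cells were analysed from the deposited read counts per gene. Per the labels and methods, the authors trimmed reads (fastx_trimmer, fastp 0.20.0), aligned them to mm10 with STAR 2.7.3a and the GRCm38.99 annotation, removed reads of mapping quality under 5 (SAMtools 1.9) and duplicates (Picard 2.21.1), and made the deposited raw counts with htseq-count 0.11.2 without strand, keeping cells with over 200000 reads. The 2148 sequencing samples were 1980 cells, since the 2 runs of 168 cells were summed. They were 620 adult WT mTEChi, 357 adult WT mTEClo, 338 Aire-KO mTEChi, 154 Aire-KO mTEClo, 77 adult WT cTECs, and 171 mTEChi, 124 mTEClo and 139 cTECs of newborns. With batches 1 and 2 included, Ins1 had reads in 168 cells, Ins2 in 252, Gcg in 374, Sst in 289, Ppy in 173 and Iapp in 679. Reads without molecular identifiers are not independent molecules, so intervals and floors (3 reads) cover counting error only.

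The members and the gene lists were chosen with earlier results of these data known. Cells were summed per mouse pool (11 mTEC pools of 6 groups) and tested with edgeR 4.0.16 (quasi-likelihood test, TMM, filterByExpr) in R 4.3.3, with Benjamini-Hochberg adjustment over all 39971 genes tested. A gene was called when it changed 2-fold or more and its adjusted p fell below 0.05. The study's own test of single cells was not used, because cells are not replicates. Shares were compared by exact permutation tests (Python 3.11.15, numpy 2.4.6, scipy 1.17.1) with exact 95% intervals. Alternatives were DESeq2 1.42.0, RLE scaling, no filter, limma 3.58.1 on mean log2(CPM + 1), all 13 pools, each adult WT pool left out, experimental batches as units, 5 or more reads, and thinning to 200000 reads. Fits and permutation tests without batches 1 and 2, and permutation tests over batches, were chosen after seeing the data. The scripts were tested on simulated data.

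Genes named were the 6 members, Aire, the 3 protein-coding genes most like each member, protein-coding neighbours within 200 kb, and list genes that passed the test, at most 4 per direction and list. Genes of batches 1 and 2 that stood apart, and Slc2a2, Calca and Cd4 in Gcg-positive cells, were chosen after their values were seen. Of 48437 gene identifiers, 48263 matched the annotation (GENCODE M21).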

Additional observations from a re-analysis of the deposited data

Results flagged for a closer look

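A sample stood far from the rest of its group in 10 of 45 groups of 4 to 10 units tested, where chance flags about 1 in 20 groups. Batch 1 of adult WT mTEChi and batch 2 of adult WT mTEClo, with reads of Ins1 in 100% and of Ins2 in 100% of cells, each stood above the other batches of their group in both genes. The first adult WT mTEChi pool, which holds batch 1, stood at 7.59 CPM of Ins1 against 0 to 0.819 in the other 3 pools. Batch 1 was also the lowest of 9 for Iapp, at 25.3% of cells against 45.1% to 63.2%. The part of how these batches were prepared was not tested.

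Gcg was found in 49.4% of the Aire-KO mTEChi cells of batch 13, against 21.0% to 25.0% in the other 3 batches, and in 41.4% of the newborn mTEClo cells of batch 19, against 0 to 8.00% in the other 4. Sst was found in 1.23% of the Aire-KO mTEChi cells of batch 7 and Ppy in 1.16% of those of batch 8, where the other 3 batches held 0 of each. Both of these rest on 1 cell.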

How the results depend on the processing

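The number of the 6 genes called moved with the unit and the tool. Between Aire-KO and WT mTEChi it was 0 by the edgeR pool test, 4 by DESeq2, 4 with experimental batches as units and 4 in that fit without batches 1 and 2. Between Aire-KO and WT mTEClo it was 0, 3 by DESeq2 and 1 with batches as units. Between adult WT mTEChi and mTEClo it was 2, 1 by limma (Iapp), 0 by pools without batches 1 and 2, and 0 to 2 with each pool left out. Between newborn and adult mTEClo it was 0, 1 by DESeq2 and 3 with batches as units. For the difference of the Aire-KO effects it was 0, and 1 by DESeq2. Of 630 log2 fold changes of single genes recomputed, 26 gained a call, 17 lost one and 30 turned their direction, of which Ins2 between the adult sorts was called after the turn. Between adult WT mTEChi and mTEClo without batches 1 and 2, Ins1 turned from -3.65 to 4.10 by pools and 4.04 by batches, and Ins2 from -2.34 to 5.47 and 5.63. With each pool left out they ran from -6.24 to 6.65 and from -3.37 to 6.28. In newborn against adult mTEChi the same 2 fits turned Ins2 from -0.40 to 0.49 and 0.41 and pools turned Ppy from 0.08 to -0.0082, and with each pool left out Ins2 ran from -0.85 to 0.58, Gcg from -0.11 to 0.63 and Ppy from -0.34 to 1.11. In newborn against adult mTEClo Iapp turned from -0.20 to 0.13 by pools without batches 1 and 2 and ran from -0.41 to 0.11 with each pool left out. For the difference of the Aire-KO effects, Ins1 turned from 7.43 to -0.23 and -1.45 and Ins2, at 0 in both Aire-KO groups, from 2.34 to -5.47 and -5.63 without batches 1 and 2, with ranges of -2.78 to 9.78 and -6.28 to 3.37 with each pool left out, and Iapp turned from 4.92 to -0.31 by limma. For the difference of the newborn effects, limma turned Gcg from -3.39 to 0.029, Ppy from -4.12 to 0.12 and Sst from -0.20 to 0.88. Sst also turned to 0.42 by batches and to 0.25 by pools and 0.68 by batches without batches 1 and 2, and ran from -1.02 to 0.97 with each pool left out. Over all genes, the share called between Aire-KO and WT mTEChi was 0% by pools, 0.0275% by limma, 2.29% by DESeq2 and 5.67% by batches. The same shares were 0%, 0.0050%, 0.792% and 0.265% for Aire-KO mTEClo, 11.7%, 7.66%, 26.05% and 35.02% for mTEChi against mTEClo, 0%, 0%, 0.0898% and 1.79% for newborn mTEChi, and 0%, 3.06%, 6.33% and 15.998% for newborn mTEClo. For the differences of effects they were 0%, 0%, 0.584% and 0.346% for Aire-KO and 0%, 0.235%, 0.941% and 5.33% for newborns. The cause was not tested.

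The share of adult WT mTEChi cells with any of the 6 genes went from 81.3% to 50.8% at 5 or more reads and 65.6% after thinning, and to 79.5% to 81.7% with each pool left out. The Iapp level in positive cells, a median of 6.16 CPM, became 27.4 CPM at 5 or more reads and 66.2 CPM as a mean. The cells with at least 2 hormone genes were 1.04 times those given by the shares, 1.28 times at 5 or more reads and 1.24 times at 5 or more reads without batches 1 and 2. The Aire ratio of 1.30 between hormone-positive and hormone-negative cells, with batch 1 counted, became 1.94 by medians. Of the 18 most alike genes, 8 were the same genes with Spearman's rho, 7 with adult WT mTEChi cells alone and 11 without batches 1 and 2. By replicate number no paired analysis was possible, because the replicate numbers of the samples only name cells and pair none across groups. The newborn sorts share batches, not numbers, and were compared within them. With 1 pool in most groups, and 1 to 4 reads in many positive cells, small differences were not detectable at this depth.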
